A study of Sus scrofa with 28 samples.

Results

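The median lung lobe was compared between swine that inhaled the higher and the lower of 2 doses of sulfur mustard vapor, called HD in the labels. The arrays were chosen by their labels, the median lobe at the medium dose (100 µg/kg, 4 animals) against the median lobe at the low dose (60 µg/kg, 3 animals). These are 7 of the 28 arrays of the series, with 1 array per animal, so the replicates are separate animals. The 3 median lobes of animals that breathed air entered the same fit and are given as background. All 10 animals were large swine labelled female, and all were anesthetized and breathed air or HD vapor for 10 minutes, the HD animals intubated and lying on their backs. The animals were killed at 12 hours, and total RNA of a tissue sample of the lobe was hybridized to the Affymetrix porcine array. The labels give no breed or age. Animals are called medium 1 to 4, low 1 to 3 and air 1 to 3, and lists of values follow that order.

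Sulfur mustard is an alkylating agent that reacts with DNA, proteins and thiols, and inhaled vapor first meets the lining of the airways. Injury of this lining is known to shed ciliated cells, to expose tissue factor so that fibrin forms in the airways, and to draw neutrophils through chemokines such as interleukin 8. Cells that survive alkylation are known to induce the cell cycle inhibitor p21 and immediate early transcription factors, and to rebuild their cytoskeleton and matrix during repair.

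The deposited values are array signals, a brightness in arbitrary units. Every array had a 2% trimmed mean of 150.0, so the authors' values were already scaled, and the medians of the 10 median lobe arrays ran from 56.3 to 64.0. The surfactant protein gene SFTPC, which marks alveolar type 2 cells, had a signal of 2301 to 3481 on these arrays and stood above the 99.6th percentile of probe sets on each. The endothelial gene PECAM1 had a signal of 1406 to 2041 and the alveolar type 1 gene AGER one of 346 to 894. The surfactant protein genes SFTPA1 and SFTPB ran from 730 to 2055 and, more unevenly, from 190 to 1144. All of these stood above the 74th percentile of probe sets on each array, so the labelled tissue matched its markers. The RNA index, the mean log2 ratio of the 3′ to the 5′ control probe sets of actin and GAPDH, is higher when RNA is more degraded. It was 1.33 ± 0.78 (SD, n = 4) at the medium dose, 0.64 ± 0.16 (SD, n = 3) at the low dose and 0.97 ± 0.26 (SD, n = 3) in air. The medium and low doses differed by 0.68, with a two-sided exact permutation p of 0.2, where 35 splits allow no p below 0.0286. Medium 2 had the highest index, 2.39, and without it the difference was 0.33. In whole lobes, fewer cells of a type and less RNA per cell cannot be told apart.

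At an adjusted p under 0.05 (limma, Benjamini-Hochberg over 23999 probe sets), 4 probe sets were higher and 1 was lower at the medium dose, which is 0.0208% of those tested. Differences are given as medium minus low on the log2 scale after adding 16 to the signal, with the standard error of the fit, and the offset makes the differences of dim genes smaller. At an unadjusted p under 0.05, 5370 probe sets (22.4%) differed, 2722 higher and 2648 lower. A looser limit of an adjusted p under 0.1, chosen after the data were seen, took 1131 probe sets, 611 higher and 520 lower. Of these, 54.0% were higher, against 42.9% with the deposited scaling and 67.1% with arrays centred on their medians. The number of probe sets under an adjusted p of 0.05 depended on single animals. The 5 were all still called in 9 of 19 alternative settings. The count was 0 without low 1, without low 2, without low 3 or without medium 3, and 1 without air 1 or without medium 2. It was 11 without medium 4, 17 without air 3, 74 without air 2 and 1312 without medium 1.

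**Figure D1:**
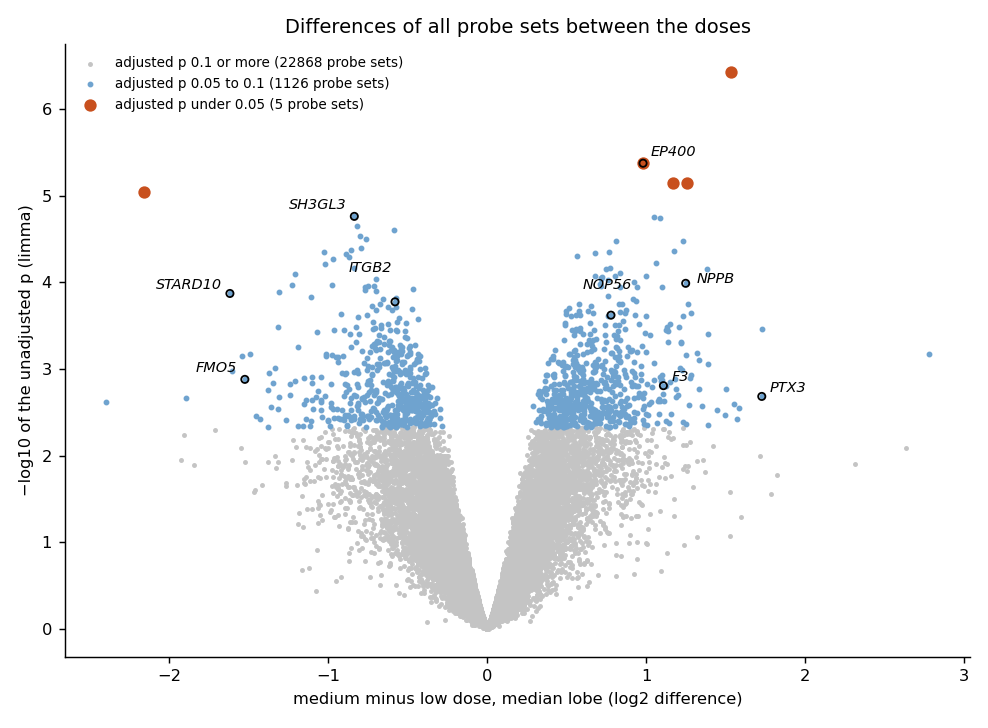
Each point is 1 of 23999 probe sets, placed by its medium minus low difference in the median lobe (x axis, log2) and by the −log10 of its unadjusted limma p (y axis). The 5 large points passed an adjusted p of 0.05, and circles mark genes named in the text, of which only EP400 is among the 5.

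Of the 5 probe sets, 2 carried a single gene symbol. EP400 is a chromatin remodelling ATPase of the NuA4 histone acetyltransferase complex. Its signal was 150.1, 122, 117 and 120.0 in the medium lobes and 53.1, 66.9 and 62.5 in the low lobes, with 68.8, 68.3 and 85.1 in air. All 4 medium lobes lay above every low and air lobe. EP400 rose by 0.98 ± 0.11, a fold of 1.97 (limma, adjusted p = 0.0426). Its adjusted p ran from 0.0127 to 0.206 over 19 alternative settings, of which 10 kept it under 0.05. A dimmer probe set of EP400 had a difference of 0.14, and the brighter one gave -0.03 in the apical and -0.34 in the caudal lobe, each with 3 of the 4 medium animals.

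EIF4H, a helper of the translation initiation helicase, passed through the dimmer of its 2 probe sets. That probe set read 113, 137, 160.1 and 124 in the medium lobes and 56.5, 51.9 and 52.3 in the low lobes, and rose by 1.17 ± 0.14 (limma, adjusted p = 0.0426). The brighter EIF4H probe set read 1519.7, 1445, 1493 and 1521 against 1608, 1556 and 1373, with a difference of -0.09 ± 0.08 (limma, adjusted p = 0.522). The probe sets of this gene therefore disagree, and which one stands for its mRNA was not tested.

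The other 3 probe sets had no single symbol in the platform annotation used here. Probe set Ssc.29833.1.A1_at had the smallest p of all. It read 111, 148, 141 and 115 at the medium dose and 39.1, 33.01 and 37.0 at the low dose, and rose by 1.53 ± 0.13 (limma, adjusted p = 0.00892). Every medium lobe was above every low lobe, and the differences in the apical and caudal lobes, each with 3 of the 4 medium animals, were 1.41 and 1.30. Ssc.28673.1.S1_at rose by 1.26 ± 0.15 and Ssc.25962.1.S1_at fell by 2.16 ± 0.26 (limma, adjusted p = 0.0426 and 0.0434). The latter read 187, 195, 205 and 89.7 in the medium lobes against 720.0, 861 and 740.2 in the low lobes. Both were named after their values were seen.

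The genes with the next smallest p did not pass, with adjusted p of 0.0523 to 0.0617. GADD45G, a stress-induced inhibitor of cell growth, read 372, 349, 394 and 491 in the medium lobes, 222, 232 and 212 in the low lobes and 162, 147 and 184 in air. Its groups stood in the order air, low, medium without overlap, and its difference was 0.80 ± 0.13 (limma, adjusted p = 0.0523). NPPB, which encodes B-type natriuretic peptide, read 92.9, 91.1, 76.8 and 143 against 35.8, 39.3 and 29.5, a difference of 1.25 ± 0.20. EGLN2, a prolyl hydroxylase of the oxygen sensing pathway, read 356, 331, 390.2 and 289 against 203, 219 and 183, a difference of 0.71 ± 0.11, and its low lobes also lay below all 3 air lobes. The nucleolar genes GPATCH4, RSL1D1 and WDR18 had differences of 0.68, 0.72 and 0.56, where second probe sets of RSL1D1 and WDR18 gave 0.31 and -0.23. The secreted signalling modulator TSKU, the protease BACE2 and MLLT11 had differences of 0.93, 0.75 and 0.83. In each of these genes all 4 medium lobes read above all 3 low lobes, as they did in 8.32% of all genes. The genes were chosen by a small p in the same comparison, which favors such gaps.

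On the lower side, the lipid transfer protein gene STARD10 had the widest gap among the 10 lower genes with the smallest p. It read 14.4, 17.3, 8.11 and 5.46 in the medium lobes and 75.6, 70.2 and 63.2 in the low lobes, with 22.2, 64.2 and 22.0 in air. Its medium lobes were near the bottom of the array's range, air 2 read with the low lobes, air 1 and air 3 lay between the doses, and the difference was -1.62 ± 0.27 (limma, adjusted p = 0.0565). ITGB2, the beta chain shared by the leukocyte integrins, read 740.5, 679, 656 and 767 against 997, 1032 and 1102, a difference of -0.58 ± 0.10 (limma, adjusted p = 0.0617). HCST, the DAP10 adaptor of natural killer and T cells, had a difference of -0.68 ± 0.12. SH3GL3, an endophilin of membrane traffic, read 24.8, 21.1, 19.7 and 20.4 against 59.3, 53.3 and 47.0, a difference of -0.84 ± 0.11. The mitochondrial genes ALDH1B1 and FBXL4, a dehydrogenase and an F-box protein, had differences of -0.77 and -0.76, where a second FBXL4 probe set gave -0.13. FOLH1B, the ubiquitin enzymes UBE2E2 and PJA1 and the GTPase RAB32 had differences of -0.70, -0.58, -0.62 and -0.66, where a second PJA1 probe set gave 0.14. In all 10 genes the medium and low lobes did not overlap, as did not 9.62% of all genes in this direction. Choosing genes by a small p in the same comparison favors such gaps, so this is not added support.

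**Figure D2:**
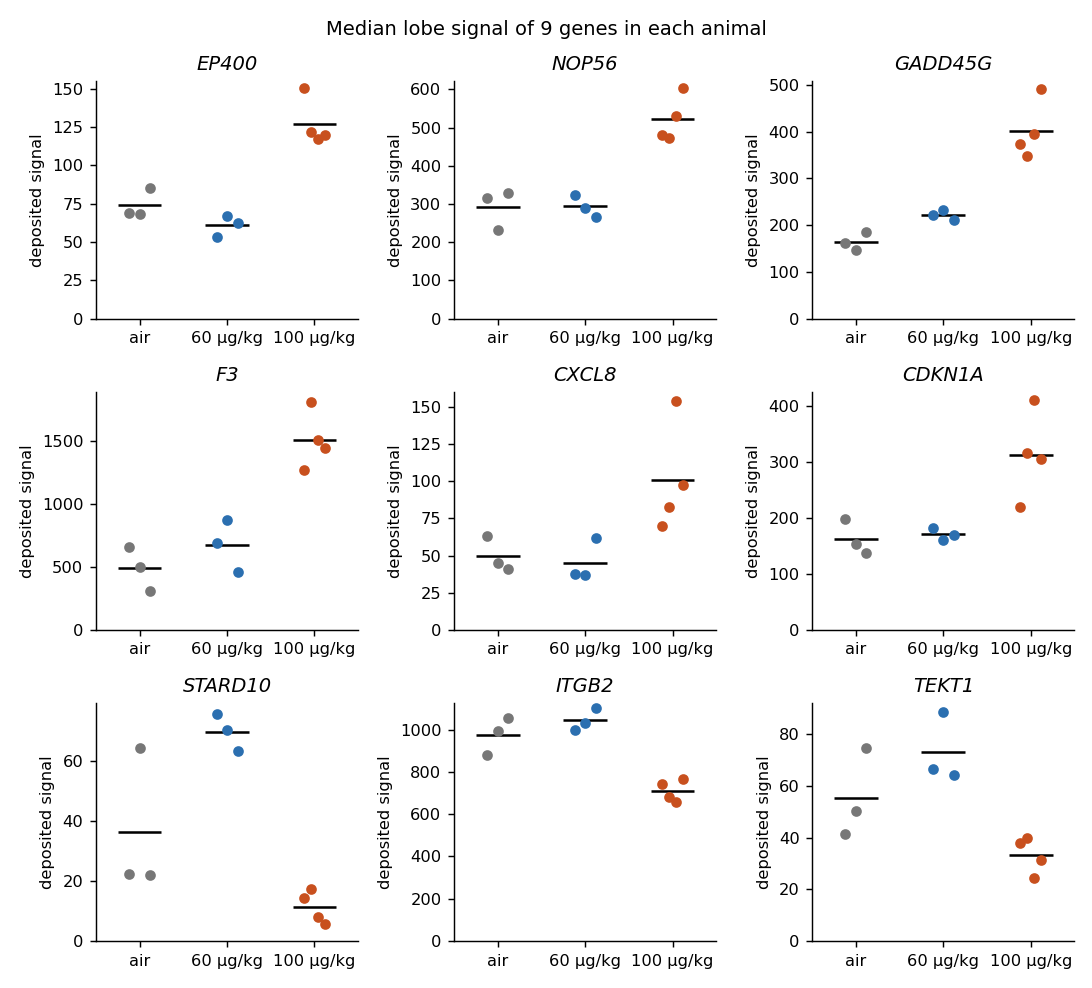
Deposited signal of 9 genes in the median lobe of each animal (y axis from 0, points) with the group mean (line), for air, 60 µg/kg and 100 µg/kg. In each of the 9 genes every medium point lies on 1 side of every low point, above it for EP400 to CDKN1A and below it for STARD10, ITGB2 and TEKT1. Of all genes, 8.32% lay wholly above and 9.62% wholly below.

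Gene groups were described over 6765 genes, each taken at its brightest probe set with a single symbol, in 57 lists that share some genes. Over all genes the median difference was -0.02, with 80% of genes between -0.37 and 0.34. Of all genes, 10.8% were higher and 12.9% lower at an unadjusted p under 0.05. Counts of list members at that limit are to be read against these shares. At an adjusted p under 0.1, 2.68% were higher and 2.42% lower. The 4 medium lobes lay above the 3 low lobes on both the deposited and the normalized scale in 8.32% of genes, and below them in 9.62%. In a fit that included the RNA index these shares at an unadjusted p under 0.05 were 6.49% and 7.49%. Without low 3 they were 7.10% and 7.67%, and without medium 1 they were 13.02% and 15.9%. EP400 was the only gene at its brightest probe set to pass an adjusted p of 0.05, so the members described below did not pass unless stated.

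Genes that assemble ribosomes had the largest count of members on 1 side at an unadjusted p under 0.05. Of 29 measured, 15 were higher and 2 lower at an unadjusted p under 0.05, 8 were higher at an adjusted p under 0.1, and 14 had medium lobes wholly above the low lobes. Their median difference was 0.35. NOP56, a core protein of the box C/D particles that methylate ribosomal RNA, read 482, 474, 531 and 603 in the medium lobes against 324, 291 and 267 in the low lobes and 315, 232 and 328 in air. Every medium lobe stood above every low and air lobe, and the difference was 0.78 ± 0.14 (limma, adjusted p = 0.0617). PES1, of the complex that processes the large subunit's RNA, read 194, 219, 254 and 203 against 140.1, 124 and 137, a difference of 0.66 ± 0.12, and WDR12 of the same complex had 0.33 ± 0.08. The nucleolar protein gene LYAR had 0.66 ± 0.14, with 0.25 at a second probe set. The RNA polymerase I subunits were split, with POLR1B and POLR1C at 0.47 and 0.53 and POLR1D at -0.29, and the polymerase I factor POLR1E had 0.42 ± 0.11. MYC, a regulator of ribosome production that sits on another list, is given below. The ribosomal proteins themselves did not show this, since of 58 measured 2 were higher and 0 lower, with a median of -0.03 that became 0.12 with the deposited scaling and 0.19 with median-centred arrays. The count of higher ribosome assembly genes was 13 to 17 without any 1 of the 10 animals, and 15 in the fit that included the RNA index.

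Immediate early genes, the transcription factors and feedback genes that cells induce within minutes of a stimulus, all had differences above 0 (18 of 18, median 0.55). Of these, 8 were higher at an unadjusted p under 0.05, none was lower, and 5 had no overlap between the doses. JUN read 1609.7, 1897, 1494 and 1632 in the medium lobes, 1093, 1091 and 969 in the low lobes and 814, 685 and 1285 in air. The medium lobes all lay above the rest, with a difference of 0.57 ± 0.18 (limma, adjusted p = 0.121). MYC read 296, 277, 437 and 443 against 218, 222 and 229, a difference of 0.63 ± 0.17 (limma, adjusted p = 0.0987). FOSL1 read 27.6, 25.7, 83.0 and 41.1 against 18.5, 14.9 and 18.4, a difference of 0.84 ± 0.25, with medium 3 the highest. The other 2 FOSL1 probe sets both gave 0.02. FOSL2 had 0.70 ± 0.21, and the phosphatase gene DUSP1, which turns off MAP kinases, had 0.31 ± 0.14 with overlap between the doses. Relative to the air mean, the median level of the list was 0.29, 0.21 and 0.04 in low 1 to 3 and 0.43, 0.50, 0.90 and 0.83 in medium 1 to 4. Medium 3 and 4 stood highest and medium 1 nearest the low animals. In the fit that included the RNA index 3 members were higher (median 0.40), and without low 3 the median was 0.33.

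Genes responsive to YAP, a coactivator regulated by cell tension, and its partner transcription factors TEAD were likewise all above 0 (10 of 10, median 0.57). Of these, 5 were higher at an unadjusted p under 0.05 and 4 had no overlap. ANKRD1 read 1188, 1827, 1074 and 1455 in the medium lobes and 717, 635 and 94.9 in the low lobes, with 441, 602 and 162 in air. Low 3 was far below the other low lobes, and the difference was 1.83 ± 0.64 (limma, adjusted p = 0.143), against 0.92 without low 3. CYR61, a matrix signalling protein that the immediate early list also holds, read 1292, 1812, 1164 and 1417 against 1130.0, 848 and 446, a difference of 0.83 ± 0.27, against 0.46 without low 3, and TEAD4 had 0.71 ± 0.22. Without low 3, 3 members were higher and the list's median was 0.38. In the fit that included the RNA index, 3 were higher and the median was 0.50. Genes of the actin cytoskeleton had 8 higher and 0 lower of 20. Their median was 0.11, 0.20 with the deposited scaling, 0.27 with median-centred arrays and 0.08 in the fit that included the RNA index, where 6 were higher and 1 lower. The actin crosslinker FLNA read 937, 1469, 1259 and 1072 against 754, 855 and 647, a difference of 0.59 ± 0.15, with 1063, 858 and 1021 in air. The alpha-actinin gene ACTN1 had 0.53 ± 0.13, PDLIM7 0.50 ± 0.13 and TAGLN2 0.45 ± 0.12. The other 2 ACTN1 probe sets gave -0.35 and 0.88.

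**Figure D3:**
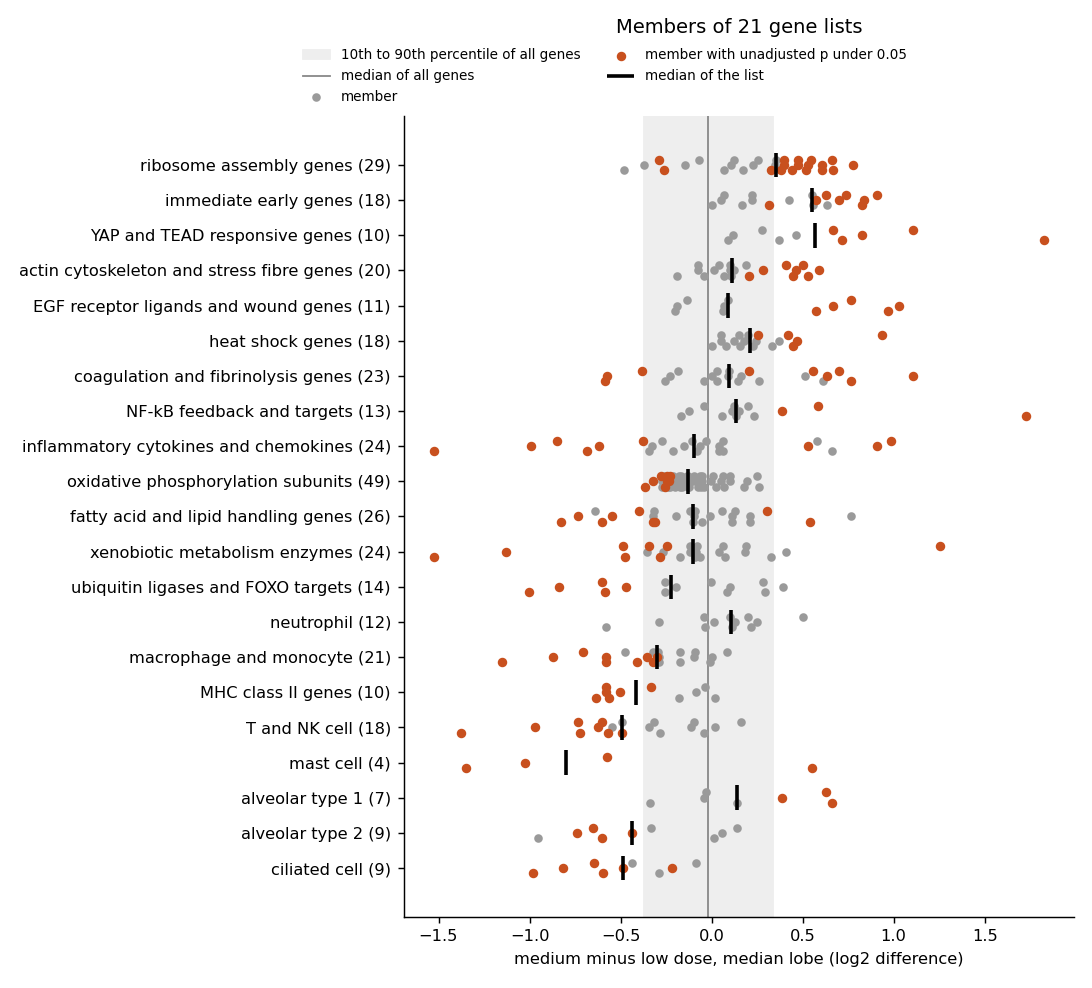
Medium minus low difference in the median lobe (x axis, log2) of every measured member of 21 lists, with the number measured in brackets, the list median as a bar and the 10th to 90th percentile of all genes shaded. Members with an unadjusted p under 0.05 are coloured: 15 of the 17 for ribosome assembly are to the right, and all 6 for ciliated cells are to the left.

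Genes of clotting and wound repair held some of the wider gaps. F3 encodes tissue factor, the starter of the clotting cascade, and is also a member of the YAP list. It read 1264, 1809.6, 1507 and 1439 in the medium lobes, 686, 871 and 455 in the low lobes and 656, 501 and 310.1 in air. All medium lobes stood above all others, and the difference was 1.11 ± 0.26 (limma, adjusted p = 0.0797). The protease inhibitor SERPINE2 read 703, 942, 742 and 809 against 556, 397 and 485, a difference of 0.70 ± 0.15. THBS1, the platelet and matrix protein thrombospondin 1, had 0.64 ± 0.18 at its brightest probe set and 0.30 to 2.78 at the other 4. PLAU, the urokinase protease that starts fibrinolysis, read 338, 337, 536 and 349 against 219.8, 201 and 238, a difference of 0.76 ± 0.19. Over the coagulation list, 6 of 23 were higher and 3 lower at an unadjusted p under 0.05, with a median of 0.10. The median was 0.15 without medium 1, 0.05 without medium 2, 0.03 without medium 3, 0.15 with the deposited scaling, 0.22 with median-centred arrays and 0.06 in the fit that included the RNA index. Without low 3 and without medium 3 the higher count was 4, and it was 5 to 7 without any of the other animals. The lower count was 0 without medium 1 or medium 2 and 1 without low 2 or low 3.

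The list of epidermal growth factor receptor ligands and wound genes, which shares PLAU with the clotting list, had 5 of 11 higher and 0 lower, all 5 without overlap. The list's median of 0.09 moved with the settings, to 0.04 without medium 3, 0.19 without low 2, 0.15 without medium 1, 0.16 without medium 2, 0.16 with median-centred arrays, 0.17 in the fit that included the RNA index and 0.57 in the brighter 12000 probe sets. Its ligands AREG and HBEGF were among the 5. HBEGF read 85.5, 85.6, 104 and 100.3 against 67.3, 69.5 and 49.8, a difference of 0.57 ± 0.12 (limma, adjusted p = 0.0747). AREG was dim, at 12.8, 22.0, 49.6 and 44.5 against 7.96, 7.75 and 5.35, with a difference of 1.03 ± 0.26. The matrix protein TNC and the fibronectin receptor chain ITGA5 had 0.97 ± 0.32 and 0.67 ± 0.22, where a second ITGA5 probe set gave -0.50 and TNC had 0.55 without low 3. The higher count stayed at 5 without any 1 of the 10 animals. In the matrix list, 4 of 29 were higher, not far above the 10.8% of all genes, and 1 was lower. The proteoglycan BGN had 0.56 ± 0.18 and the collagen gene COL1A2 had -0.85 ± 0.24, where a second COL1A2 probe set gave 0.74.

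Differences of inflammatory genes had both signs. CXCL8, the neutrophil chemokine interleukin 8, read 69.9, 82.5, 154 and 97.7 in the medium lobes, 37.4, 36.9 and 61.5 in the low lobes and 63.3, 44.9 and 40.8 in air. The doses did not overlap, and the difference was 0.99 ± 0.24 (limma, adjusted p = 0.0827). CCL2, which attracts monocytes, read 1191, 881, 1733 and 1130.2 against 752, 479 and 625, a difference of 0.91 ± 0.32. CCL8, a related chemokine, read 232, 86.2, 31.7 and 101 against 496, 223 and 237, a difference of -1.52 ± 0.50 with overlap through medium 1. IL6 read 33.2, 22.4, 121 and 31.1 against 35.4, 13.8 and 22.6, where only medium 3 stood above the low lobes (0.66 ± 0.38, limma, adjusted p = 0.334), and the difference was 0.25 without it. IL1B had 0.04 ± 0.17 (limma, adjusted p = 0.924), IL15 -0.37 ± 0.10, and the heme oxygenase HMOX1 -0.05 ± 0.14 (limma, adjusted p = 0.868). Over the cytokine list 3 of 24 were higher and 6 lower, with a median of -0.10. The higher count was 1 without low 2, the lower count was 3 without low 3, and the median was -0.05 without low 2, without low 3 or without medium 3. Of 13 targets and brakes of NF-kB, 3 were higher and 0 lower. The long pentraxin PTX3 had the widest gap of these, with 401, 308, 1078 and 649.7 against 176, 132 and 159.9, a difference of 1.73 ± 0.42. A second PTX3 probe set gave 0.82. The inhibitor NFKBIB and the adhesion molecule ICAM1 had 0.58 ± 0.11 and 0.39 ± 0.12, where a second NFKBIB probe set gave 0.06. Interferon-stimulated genes had 0 of 23 higher and 3 lower, a lower count near the 12.9% of all genes. STAT2 was among the 3, at -0.65 ± 0.19. The median was -0.12. Without medium 1 the lower count was 9 and the median -0.31, while the lower count was 1 without low 2 (median -0.05) or without low 3 (median -0.28). The median was -0.20 without low 1, -0.07 without medium 3, -0.06 with median-centred arrays and 0.01 in the fit that included the RNA index, where 1 was lower.

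Of the genes that answer DNA damage, CDKN1A encodes p21, the cell cycle brake under p53. It read 220.5, 316, 412 and 306 in the medium lobes, 182, 160.1 and 170.0 in the low lobes and 199, 153 and 138 in air. The doses did not overlap, medium 1 was nearest to the low lobes, and the difference was 0.79 ± 0.18 (limma, adjusted p = 0.0797). PMAIP1, the NOXA protein that promotes cell death, read 120.2, 109.6, 167 and 181 against 92.8, 85.4 and 87.1, a difference of 0.65 ± 0.17, and the kinase PLK3 had 0.89 ± 0.22 with a second probe set at -0.01. DDB2, which recognises damaged DNA, had -0.37 ± 0.12, with -0.48 and 0.10 at its other 2 probe sets. The p53 list as a whole had 3 of 18 higher and 2 lower, where 10.8% of all genes were higher and 12.9% lower. Without medium 2, 4 were lower. The median of 0.05 was -0.06 without low 1, -0.03 without medium 2 and -0.02 in the fit that included the RNA index. DNA repair genes had 1 of 20 higher, the base excision enzyme APEX1 at 0.25 ± 0.08, and 3 lower, FANCD2, RPA2 and BRCA1 at -0.35, -0.40 and -0.54. The lower count, not far above the 12.9% of all genes, was 1 without low 3 and 5 without medium 1. Among 24 cell cycle genes 2 were higher and 1 lower, the replication helicase subunit MCM4, which read 26.02, 5.46, 10.1 and 11.7 against 49.7, 35.03 and 31.8 and had -0.90 ± 0.21 (-0.33 at a second probe set). Without medium 3, 4 were higher, and without low 3, 3 were lower.

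Stress chaperones were above 0 in 18 of 18 heat shock genes, with a median of 0.21. At an unadjusted p under 0.05, 5 were higher and 0 lower. Without medium 1 the count was 10, without low 3 it was 2, and in the fit that included the RNA index it was 3 (median 0.11). The median was 0.33 with median-centred arrays. BAG3, a co-chaperone of HSP70, read 431, 613, 518 and 521 against 355, 362 and 384, a difference of 0.47 ± 0.11 (limma, adjusted p = 0.0844), with 0.23 at a second probe set. The small heat shock protein CRYAB had 0.45 ± 0.14, with 1.72 at a second probe set. The mitochondrial chaperone HSPA9 had 0.42 ± 0.11 at its brightest probe set and -0.71 and 0.06 at the other 2. Of 20 genes of the amino acid response under ATF4, 5 were higher and 1 lower. The arginine transporter SLC7A1 read 269, 311, 374 and 383 against 205, 238 and 195, a difference of 0.60 ± 0.14. The proline enzyme PYCR1 had 0.86 ± 0.24 and the lipoprotein receptor VLDLR -0.60 ± 0.14. Chaperones of the endoplasmic reticulum had 1 of 17 higher and 0 lower, and NRF2 targets 1 of 18 higher and 2 lower. RCAN1, a calcineurin inhibitor, read 442, 641, 676 and 704 against 358, 304 and 275, a difference of 0.92 ± 0.16 (limma, adjusted p = 0.0605), the 1 member of its list of 6 past an unadjusted p of 0.05. A second RCAN1 probe set gave 0.48. Of 18 hypoxia genes 0 were higher and 3 lower, where 12.9% of all genes were lower. ANKRD37 read 82.4, 63.1, 66.1 and 59.5 against 115, 158 and 137 and had -0.82 ± 0.16. Without medium 3, 5 were lower.

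Genes of glucocorticoid response were uneven among the medium animals. Of 15, 3 were higher and 1 lower, 0 of the 3 without overlap. The 1 lower member, PIK3IP1, had no overlap and a difference of -0.60, with -1.07 at a second probe set. The list level relative to air was -0.10, 0.05, 1.08 and 1.06 in medium 1 to 4 and 0.17, -0.03 and 0.25 in low 1 to 3. Only medium 3 and 4 stood above the low animals. PER1, a clock gene induced by glucocorticoids, showed this split, with 397, 473, 1314 and 1287 in the medium lobes and 401, 339 and 198 in the low lobes, a difference of 1.25 ± 0.42 (limma, adjusted p = 0.131) and 0.35 at a second probe set. ANGPTL4, an inhibitor of lipoprotein lipase, read 166, 226, 577 and 330.2 against 154, 135 and 188, a difference of 0.85 ± 0.33, against 0.53 without medium 3 and 0.34 at a second probe set. The list's median was 0.37, 0.19 without medium 4, 0.23 without medium 3, 0.56 without medium 1 and 0.60 without medium 2. The higher count was 6 without medium 1 and 1 without low 1, without low 3 or without medium 4.

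The lists of xenobiotic metabolism, fatty acid handling and oxidative phosphorylation had more members lower than higher at an unadjusted p under 0.05. Over all genes the shares were 12.9% lower and 10.8% higher. Of 24 enzymes of xenobiotic metabolism, 1 was higher and 7 lower, with a median of -0.10. The median was -0.17 without low 1 and -0.03 with median-centred arrays, and 4 were lower in the fit that included the RNA index. The flavin monooxygenase FMO5 read 81.5, 29.8, 26.5 and 27.7 in the medium lobes, 143, 177 and 109 in the low lobes and 103, 136 and 50.7 in air. Its doses did not overlap and its difference was -1.52 ± 0.35 (limma, adjusted p = 0.0794). The glutathione transferase GSTA1 had -1.13 ± 0.38, with -1.01 and 0.04 at its other 2 probe sets, the membrane-bound MGST1 -0.47 ± 0.15 and the aldehyde dehydrogenase ALDH2 -0.49 ± 0.14. The exception was the cytochrome CYP3A29, at 75.6, 71.9, 45.5 and 25.7 against 12.4, 16.5 and 10.3 (1.25 ± 0.38), which read 17.6, 38.6 and 90.9 in air. Of 26 genes of fatty acid handling 2 were higher and 7 lower. The acyl-CoA synthetase ACSL3 read 131, 105, 96.8 and 95.6 against 175, 162 and 185, a difference of -0.60 ± 0.11, and its air lobes, at 119.6, 119 and 103, were near the medium ones. The lower count of that list was 3 without low 3 and 4 without medium 3. Of 49 subunits of oxidative phosphorylation 0 were higher and 8 lower, a lower count not far above the share of all genes. The 8 had differences from -0.36 to -0.23, and the list's median of -0.13 was -0.02 with median-centred arrays. The lower count was 17 without medium 1, 2 without low 1, 3 without medium 3, 4 without low 3 and 1 in the fit that included the RNA index. Of 14 ubiquitin ligases and other FOXO targets 0 were higher and 5 lower. FBXO32, the ligase atrogin-1, read 76.2, 66.2, 65.2 and 32.6 in the medium lobes, 97.8, 137 and 186 in the low lobes and 176, 278 and 311 in air, a difference of -1.004 ± 0.27. The transcriptional cofactor CITED2 had -0.84 ± 0.20.

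Markers of the airway's ciliated cells were all below 0. Of 28 listed, 9 were measured, of which 0 were higher and 6 lower at an unadjusted p under 0.05, 4 had no overlap and the median was -0.49. TEKT1, a tektin of the ciliary microtubules, read 37.9, 39.8, 24.4 and 31.2 in the medium lobes, 66.8, 88.9 and 64.2 in the low lobes and 41.3, 50.2 and 74.9 in air. All medium lobes lay below all low lobes and below all air lobes, and the difference was -0.81 ± 0.19 (limma, adjusted p = 0.0797). SPA17, a sperm and cilia protein, read 129, 48.3, 51.6 and 49.9 against 122, 169 and 152, where medium 1 overlapped the low lobes and the other medium lobes lay below them. CAPSL and the radial spoke protein gene ROPN1L had -0.64 ± 0.18 and -0.49 ± 0.16. The summed signal of the 9 markers was 1057 to 1471 at the medium dose, 1526 to 1898 at the low dose and 1297 to 1653 in air. Relative to air the list level was 0.22, 0.42 and 0.13 in low 1 to 3 and 0.11, -0.24, -0.20 and -0.50 in medium 1 to 4, so that the low lobes stood above the air mean and 3 of 4 medium lobes below it. The lower count was 5 to 8 without any 1 animal, and 4 in the fit that included the RNA index, where the median stayed at -0.49.

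Differences of epithelial keratins and alveolar markers had both signs. KRT18 and KRT8 encode the keratin pair of simple epithelia. KRT18 read 394, 496, 795 and 553 in the medium lobes, 238, 304 and 302 in the low lobes and 196, 213 and 239 in air, with no overlap between the doses and a difference of 0.91 ± 0.20 (limma, adjusted p = 0.0755), and KRT8 had 0.59 ± 0.16. A second KRT8 probe set gave 0.30. PDPN, a membrane protein of alveolar type 1 cells, read 1482, 2236, 2261 and 2172 against 1333, 1278 and 991, a difference of 0.66 ± 0.15. Of 7 type 1 markers 3 were higher and 0 lower, and their median was 0.14, 0.28 with the deposited scaling 0.35 with median-centred arrays and 0.08 without low 3. Of 9 type 2 markers 0 were higher and 4 lower, with a median of -0.44. They were the mucin MUC1 at -0.60 ± 0.13, the transcription factor CEBPA at -0.74 ± 0.17, the phosphate transporter SLC34A2 at -0.44 ± 0.17 and the surfactant protein gene SFTPA1 at -0.65 ± 0.29, where second probe sets of MUC1 and CEBPA gave 0.01 and -0.13 and SFTPA1 had -0.38 without medium 2. SFTPC had 0.06 ± 0.08 (limma, adjusted p = 0.744). The type 2 sum was 10323 to 12322 at the medium and 10757 to 12670.4 at the low dose. In the fit that included the RNA index the median was -0.13 with 2 lower, with median-centred arrays it was -0.28, and 2 were also lower without low 2, without low 3 or without medium 3. The part of RNA quality in this was not tested.

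Markers of macrophages and monocytes, MHC class II genes and markers of T and natural killer cells were mostly below 0. Whether they came from cells of the tissue or of the blood was not tested. Other immune lists shared this less. Of 6 B and plasma cell markers, 3 were above and 3 below 0, with a median of -0.03. Of 7 dendritic cell markers, 2 were above and 5 below 0, with a median of -0.17. At the limit used for list counts, 1 B and plasma cell marker and 0 dendritic cell markers were lower, and 0 of either were higher. Of 21 macrophage and monocyte markers 0 were higher and 9 lower, 3 without overlap, with a median of -0.30 and a summed signal of 15786 to 19715 at the medium and 19841 to 21622 at the low dose. The complement protein C1QA read 1184, 683, 535 and 892 against 1390.0, 1159 and 1232, a difference of -0.70 ± 0.22, and the Fc receptor FCGR3A 1239, 765, 671 and 1097 against 1379, 1330.0 and 1296, a difference of -0.58 ± 0.19. In both genes medium 1 stood nearest the low lobes. Of 10 MHC class II genes, which present antigen, 0 were higher and 6 lower, with a median of -0.42. SLA-DMB read 685, 419, 397 and 416 against 695, 696 and 790.0, a difference of -0.64 ± 0.17 (limma, adjusted p = 0.0968), and the invariant chain CD74 had -0.56 ± 0.19. Of 18 markers of T and natural killer cells 0 were higher and 8 lower, 1 without overlap, with a median of -0.49 and sums of 1106 to 2348 and 1923 to 2862. The receptor KLRK1, also called NKG2D, read 136, 53.2, 40.7 and 41.9 against 119.6, 247 and 213, a difference of -1.38 ± 0.38, and the T cell receptor chain CD3E had -0.49 ± 0.16.

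The RNA index was higher on average in the medium lobes. Its part in the macrophage, class II, and T and natural killer lists was not tested. In the fit that included it the median was -0.17 for macrophages with 1 member lower, -0.14 for class II with 3 lower, and -0.28 for T and natural killer cells with 2 lower. With median-centred arrays the medians were -0.19, -0.26 and -0.44. The counts also moved with single animals. The T and natural killer count was 11 without medium 1, 5 without medium 2, 4 without medium 3, 4 without low 2 and 2 without low 3. The macrophage count was 4 without low 1 and 6 without low 3. Relative to air the level of T and natural killer markers was 0.04, -0.48, -0.83 and -0.35 in medium 1 to 4 and -0.12, 0.09 and 0.17 in low 1 to 3. For class II it was 0.11, -0.52, -0.43 and -0.13 and 0.15, 0.13 and 0.20. Of the medium animals, medium 1 stood nearest the low animals in both.

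**Figure D4:**
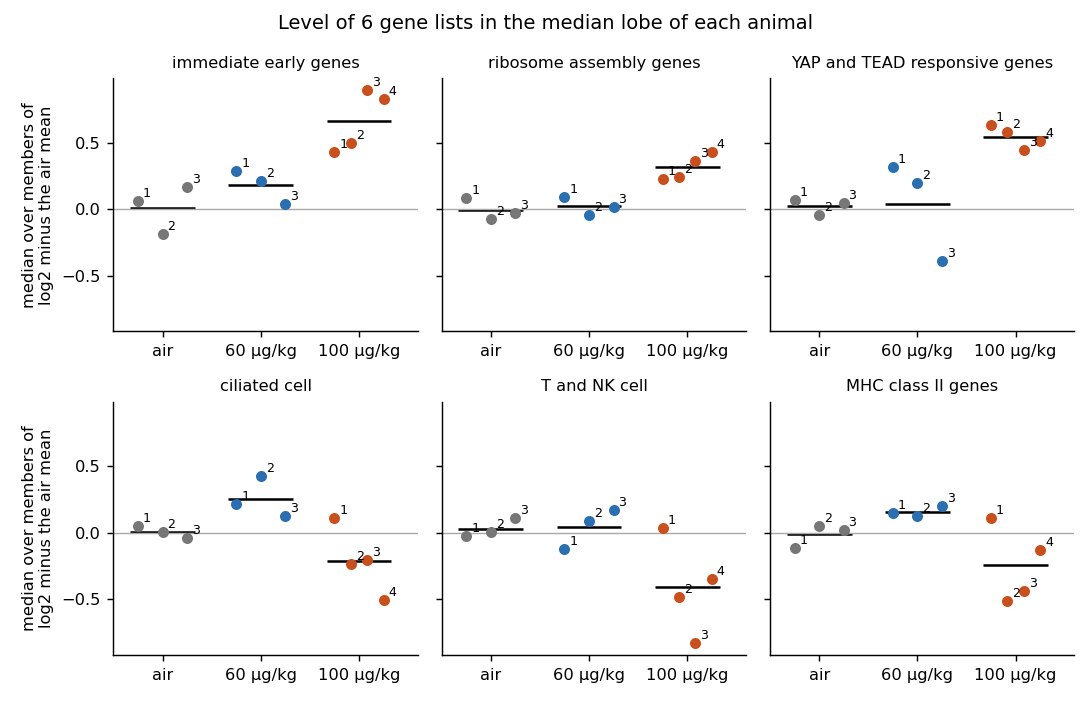
Level of 6 lists in the median lobe of each animal (numbers are the animals of each group), as the median over the members of the log2 value minus the air mean (y axis), with the group mean as a line. In the 3 upper lists every medium animal is above every low animal, and in the 3 lower lists medium 1 lies nearest the low animals.

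Of 4 measured mast cell markers 1 was higher and 3 lower, with a median of -0.80, and 1 was lower without low 3 or with the RNA index included. The tryptase gene MCT7 read 100.1, 54.9, 57.5 and 95.2 against 299, 138 and 246, a difference of -1.35 ± 0.31 (limma, adjusted p = 0.0797). The stem cell factor receptor KIT had -1.02 ± 0.35, the immunoglobulin E receptor chain MS4A2 -0.57 ± 0.20 (-1.33 at a second probe set) and the transcription factor GATA2, which other cells also use, 0.55 ± 0.22. Neutrophil markers gave no member past an unadjusted p of 0.05 in either direction (0 of 12 by limma), with a median of 0.11. Without medium 1, 2 were higher, without air 1, air 3 or low 2, 1 was higher, and without medium 4, 1 was lower. The median was 0.04 without low 2 and -0.03 in the brighter 12000 probe sets. Their summed signal was 2834 to 3156 at the medium dose and 2729 to 3039 at the low dose. Of 15 endothelial markers 2 were higher and 2 lower, with the receptor ENG at 0.80 ± 0.23 (0.52 without low 3) and the angiopoietin receptor TEK at -0.45 ± 0.16. The other TEK probe sets gave -0.19 and -1.16. Of 11 fibroblast markers 1 was higher and 1 lower, and of 13 smooth muscle markers 1 was higher and 0 lower. Adipocyte markers were dim, with 3 of 7 lower, among them PCK1 at -0.47 ± 0.12.

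The medium and low doses were also compared in the left apical and caudal lobes. The low and air animals were the same 3 in every lobe, but the apical lobe had no array of medium 3 and the caudal lobe none of medium 2, so each had 3 medium animals against 4 in the median lobe. At an adjusted p under 0.05 (limma) 0 probe sets passed in either lobe, with 2690 in the apical and 2390 in the caudal lobe at an unadjusted p under 0.05, against 5370 in the median lobe. The median lobe had 4283 without medium 3, the animals of the apical comparison, and 4711 without medium 2, those of the caudal one. The test of whether the dose difference in the median lobe departs from that in the other 2 lobes, with the animal as a block, passed in 0 of 23999 probe sets (0%), with a smallest adjusted p of 0.072 and 2107 at an unadjusted p under 0.05. Without medium 4, 1 probe set passed. No gene's dose difference is therefore shown to be particular to the median lobe. EP400, at 0.98, -0.03 and -0.34 in the median, apical and caudal lobes, was among the 6 genes with the smallest p of that test (limma, adjusted p = 0.437). So was EGLN2, at 0.71, -0.04 and -0.16. The others were POLR1E at 0.42, -0.22 and 0.09, the tetraspanin TSPAN9 at 0.50, 0.10 and -0.11 (-0.14 in the median lobe at a second probe set), the ubiquitin-like UBD at -1.003, -0.15 and -0.26, and LOC100038328 at -1.89, -0.91 and -0.60.

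Several genes had like differences in all 3 lobes. GADD45G had 0.80, 0.73 and 0.75 in the median, apical and caudal lobes, and SH3GL3 -0.84, -0.63 and -0.77. CXCL8 had 0.99, 1.21 and 0.57, and FMO5 -1.52, -1.18 and -1.07. Other genes were wider in the median lobe, with F3 at 1.11, 0.28 and 0.35 and NOP56 at 0.78, 0.20 and 0.31. The medians of the ciliated list were -0.49, -0.41 and -0.60. Those of the ribosome assembly list were 0.35, 0.04 and 0.17, and those of the immediate early list 0.55, 0.23 and 0.18. With the animals of the apical comparison, the median lobe values were -0.54, 0.36 and 0.48 for the ciliated, ribosome assembly and immediate early lists. With those of the caudal comparison they were -0.49, 0.38 and 0.47. The lobes share most of their animals, so they are not independent evidence of a dose effect.

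**Figure D5:**
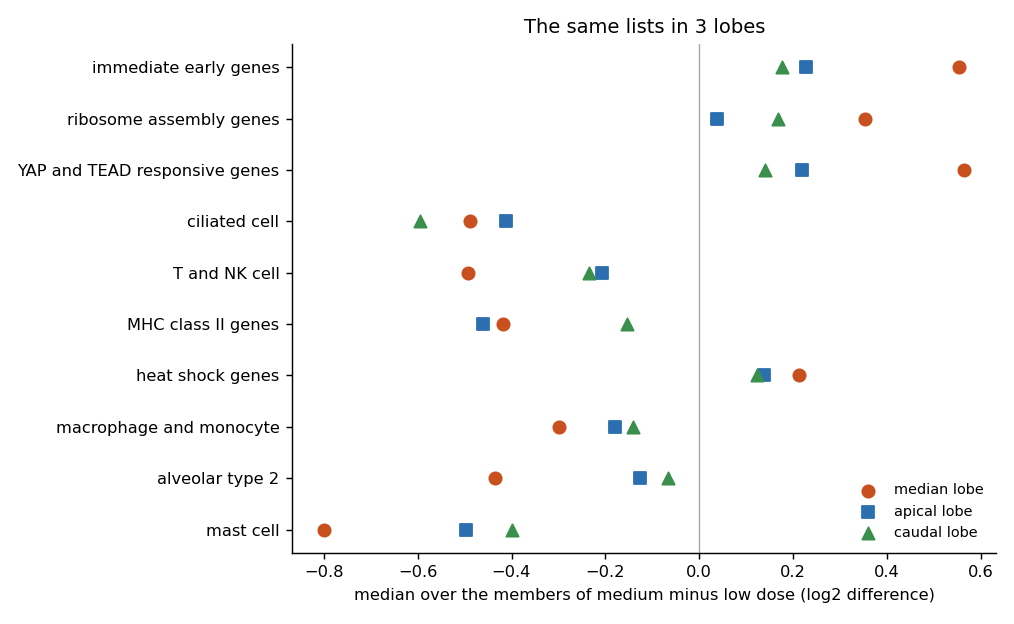
Median over the members of the medium minus low difference (x axis, log2) for 10 lists in the median, apical and caudal lobes, with 4, 3 and 3 medium animals and the same 3 low animals. The ciliated list lies at -0.49, -0.41 and -0.60 in the 3 lobes, while the immediate early list lies at 0.55 in the median lobe and at 0.23 and 0.18 in the others.

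Each dose set against air shows where the group means of the low and medium animals stood, with the air animals shared by both values. For F3 the low minus air difference was 0.47 and the medium minus air difference 1.57. For CDKN1A they were 0.07 and 0.86, for CXCL8 -0.15 and 0.83, for PTX3 -0.12 and 1.61, and for NOP56 0.03 and 0.81. In CDKN1A, PTX3 and NOP56 the low lobes stood close to air. In GADD45G and PMAIP1 both doses stood above air, at 0.41 and 1.21 for GADD45G and at 0.46 and 1.11 for PMAIP1. In STARD10, FMO5 and MCT7 the low mean stood above the air mean and the medium mean below it, at 0.77 and -0.84, 0.56 and -0.97, and 0.53 and -0.81. Single lobes of STARD10 and FMO5 overlapped those of air. EGLN2 and PTGS1, the constitutive cyclooxygenase, had the low lobes below air, at -0.48 and 0.24 and at -0.34 and 0.27. A second PTGS1 probe set had a medium minus low difference of -0.52, against 0.60 at the brightest.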

How the data were processed

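The authors' deposited values are array intensities, 1 signal per probe set of the Affymetrix porcine array. Per the labels, biotin-labelled RNA of lung tissue was hybridized, and the summarization software is not given in the sources used here. The number of arrays, not sequencing depth, limits the precision. Of 24123 probe sets, 124 controls were left out. Signals plus 16 were put on the log2 scale and quantile normalized over all 28 arrays in R 4.3.3 with limma 3.58.1, and plots were drawn in Python with matplotlib. The 10 median lobe arrays were fitted with 1 mean per exposure (lmFit, eBayes), p-values were adjusted by Benjamini-Hochberg over 23999 probe sets, and those under 0.05 were called. Lobe dependence was fitted on 28 arrays with the animal as a block. The scripts were tested on simulated data.

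GEO's platform annotation, which can be old, gave 10069 probe sets 1 symbol, 198 several and 13732 none. A gene stands at its brightest probe set with a single symbol. Named were the called genes, or the 10 with the smallest p in each direction, up to 4 members of each list with the smallest unadjusted p under 0.05, 8 preset genes (CXCL8, IL6, IL1B, CDKN1A, HMOX1, SFTPC, F3, DUSP1), genes called through another probe set, the 6 with the smallest p for lobe dependence and the unnamed probe set with the smallest p. Other members named from the ribosome assembly list were chosen after their values were seen. The comparison, the lists and the rules were chosen with earlier results of these data known. Lists are described by counts and medians, with no test. Alternatives changed the scaling, the offset, a filter on dim probe sets, the eBayes prior, the samples fitted, an RNA index covariate and single animals.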

Additional observations from a re-analysis of the deposited data

Results flagged for a closer look

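In the group of 4 medium animals, 12 of 182 items named or summarised had an animal whose gap to its nearest neighbour took most of the group's range. Chance gives about 1 such group in 20. The share of the range was 0.975 for SPA17, 0.944 for IL1B, 0.921 for LDHB, 0.901 for SLA-DMB and 0.901 for PLAU. It was 0.861 for IL6, 0.857 for TJP1, 0.856 for GPRC5A, 0.853 for SFTPC, 0.848 for the probe set Ssc.25962.1.S1_at, 0.839 for DDB2 and 0.8295 for MGST1.

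Medium 1 was the animal apart in 5 of them. It was the highest for the cilia gene SPA17, the class II gene SLA-DMB, the lactate dehydrogenase subunit LDHB and the glutathione transferase MGST1, and the lowest for SFTPC. Its normalized log2 level of SPA17 was 7.16, against 6.09 in the next animal. Medium 3 was the highest for IL6 (7.12 against 5.59), IL1B (6.72 against 6.24) and PLAU (9.12 against 8.51), and the lowest for DDB2 (5.19 against 5.53). Medium 4 was the lowest for the tight junction gene TJP1 (5.71 against 6.43) and for Ssc.25962.1.S1_at (6.77 against 7.64). Medium 2 was the highest for GPRC5A (10.73 against 10.43).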

How the results depend on the processing

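In the median lobe 5 probe sets were called. The count was 1 with the deposited scaling, 54 with median-centred arrays, 2 with an offset of 1, 75 among the 12000 brighter probe sets, 55 with a trended robust prior, 27 with only the 7 medium and low arrays, 1522 with all 28 arrays and a random animal effect (correlation 0.344), 2 with an RNA index covariate and 1131 at an adjusted p under 0.1, a limit chosen after seeing the data. It was 5 with quantile normalization of the 10 median lobe arrays. Leaving out 1 animal gave 0 to 1312 calls. Lobe dependence kept 0 calls in every alternative but 1, and leaving out 1 animal gave 0 to 1 calls. The RNA index difference kept its sign in each alternative run and missed 0.05 with actin or GAPDH alone. The runs without 1 animal had too few splits for any p under 0.05, so they could not have passed. Of the named items, only the 5 called probe sets could stop passing, and most of the items were not called. Means over a gene's probe sets had no p and were judged by direction alone. Of 3468 alternative values of 181 named items, 3183 kept their direction and side of 0.05, 236 passed newly and 40, all of the called probe sets, no longer passed. The 9 that turned direction were HSPA9 at -0.078 and GPRC5A at -0.12 as means of their probe sets, IL1B at -0.038 with the deposited scaling, -0.030 with the RNA covariate and -0.087 without medium 3, HMOX1 at 0.047 with median-centred arrays and 0.057 without low 3, and EIF4H at 0.056 with median-centred arrays and 0.54 as the mean of its probe sets. Without 1 animal, IL1B ran from -0.087 to 0.084 and HMOX1 from -0.197 to 0.057. The cause was not tested. Alternatives that left out animals for list counts were chosen after seeing the data. The doses could not be compared in pairs because each animal had only 1 exposure, and the replicate numbers only name the animals within a group. With 3 and 4 animals a missed threshold does not show equal levels, and dim probe sets, near the low end of the array, have compressed differences.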
